A study of Mus musculus with 8 samples.

Results

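The 8 genes described here set the level of polyamines, and were chosen by name: Amd1, Amd2, Odc1, Srm, Azin1, Oaz1, Oaz2 and Smox, out of 23235 symbols in the deposited table. Amd1 was picked because its listed value differed between knockout and control and between clones of one rescue form, so the values of Amd1 and Amd2 are a description with no test. The table lists 7 of the 8 under their own symbol, and Oaz2 under Oaz2-ps, with a RefSeq accession that belongs to Oaz2. RNA came from mouse embryonic fibroblasts (MEF, connective tissue cells in culture, strain C57BL/6), in 8 libraries that form 4 groups of 2. TAFH-deleted rescue cells are Taf4 -/- clones 1 and 2 with a transgene for human TAF4 that lacks its TAFH domain (Tg: hTAF4 Δ), and wild-type rescue cells are Taf4 -/- clones 1 and 2 with full-length human TAF4 (Tg: hTAF4 wt). Knockout cells are Taf4 -/-, and control cells are Taf4 loxp/-, with a floxed and a null allele, and are also given as wild type elsewhere in the labels. TAF4 belongs to TFIID, the complex that helps RNA polymerase II start at promoters. Which exons were removed and what drives the transgenes is not given in the sources used here, and each rescue library is 1 clone, so clone and TAF4 form cannot be told apart in a single library.

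Polyamines (putrescine, spermidine and spermine) are small positively charged metabolites that bind RNA and DNA and that growing cells need. Odc1, ornithine decarboxylase, makes putrescine, and Amd1, S-adenosylmethionine decarboxylase, makes the aminopropyl donor that Srm, spermidine synthase, joins to it. Antizymes (Oaz1, Oaz2) bind ornithine decarboxylase and send it to the proteasome, Azin1 binds antizymes and so spares the enzyme, and Smox, spermine oxidase, turns spermine back into spermidine.

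Taf4, the targeted gene (listed as Taf4a), was at 14.7 and 19.2 FPKM with TAFH-deleted rescue, 14.5 and 15 FPKM with wild-type rescue, 12.5 and 12.4 FPKM in the knockout libraries and 11.1 and 11.5 FPKM in the control libraries. The transcript was not lower in the libraries labelled knockout, and its total also counts exons outside a deletion, so it does not check the labels, on which every direction given for knockout rests.

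FPKM gives the fragments of a transcript per kilobase of its length, scaled to library depth. From the steps between low FPKM values, 1 fragment on a transcript of 2 kb was worth between 0.0322 FPKM, in the deepest library, and 0.039 FPKM, in the shallowest. The spread within the control pair was below sampling noise (chi-square per gene of 0.729 ± 0.0318, SE, where independent reads give 1), and so was that within the knockout pair (0.602 ± 0.0312, SE). Each pair was therefore averaged and counted as 1 sample, and both groups carry no replicate error. The clones differed by more, with 2.37 ± 0.0963 (SE) for TAFH-deleted and 1.57 ± 0.0611 (SE) for wild-type rescue. Of 8 fibroblast markers 7 stood at 1 FPKM or more in every library, all but Thy1. The epithelial list summed to at most 0.248 FPKM and the endothelial list to at most 0.291 FPKM, and the haematopoietic list (Ptprc, Cd68, Lyz2) to between 1.13 and 10.2 FPKM, with Ptprc at or near 0. The pluripotency list summed to at most 0.826 FPKM. In bulk RNA, fewer cells of a type and less RNA per cell cannot be told apart.

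Amd1 and Amd2 could not be read as separate genes, and the sequences below show how alike they are. The table places both transcripts at 1 interval, chromosome 10, 40007264 to 40021994 (mm9), which spans 8 exons in the later annotation of Amd1. In that later annotation (GENCODE, GRCm38) Amd2 is another gene of the same chromosome, with 1 exon. The Amd2 transcript in the table has 3197 bases and its sequence was not given, so the identity, the shared stretches and the promoter given for Amd2 are those of the later annotation and may not be those of the transcript that was quantified. The GENCODE transcripts (3204 bases for Amd1, 3218 for Amd2) were 99.6% identical over 3204 aligned bases, with 14 mismatches and a longest identical run of 930 bases. Of all 50-base stretches of the Amd1 transcript, 86.1% also occurred in Amd2. Both open reading frames were 1005 bases long, and 1 mismatch fell within them. It lies in these stretches, transcript bases 1109 to 1138 in Amd1 and 1114 to 1143 in Amd2, where the capital marks the base that differs:
Amd1: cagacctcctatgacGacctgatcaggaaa
Amd2: cagacctcctatgacCacctgatcaggaaa

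The 2 genes differ upstream of their start, a stretch that is not part of either transcript. The windows printed are RefSeq's (GRCm38.p6), 250 bases before to 50 after the start, at chr10:40302139-40302438 for Amd1 and chr10:35711842-35712141 for Amd2, both on the minus strand. Capitals mark the short upstream open reading frame of 6 codons, which in mammalian cells is known to hold back translation when polyamines are high. It was the same in both transcripts:
Amd1: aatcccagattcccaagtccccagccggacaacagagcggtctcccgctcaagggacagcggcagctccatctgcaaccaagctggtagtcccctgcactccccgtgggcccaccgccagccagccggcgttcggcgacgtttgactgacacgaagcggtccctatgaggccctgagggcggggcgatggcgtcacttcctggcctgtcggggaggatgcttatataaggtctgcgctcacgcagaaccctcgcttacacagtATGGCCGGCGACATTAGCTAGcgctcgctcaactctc
Amd2: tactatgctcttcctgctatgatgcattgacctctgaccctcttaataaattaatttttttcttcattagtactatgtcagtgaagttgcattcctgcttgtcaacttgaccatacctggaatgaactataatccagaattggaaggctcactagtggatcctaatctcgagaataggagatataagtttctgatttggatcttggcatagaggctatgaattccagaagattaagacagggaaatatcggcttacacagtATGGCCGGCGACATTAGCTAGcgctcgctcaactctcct
Over the 250 bases before the start the windows were 39.9% identical where aligned. GC content there was 64.4% for Amd1 and 37.6% for Amd2, with 19 and 2 CpG pairs. The E-box CANNTG, the motif that E proteins bind and a palindrome searched on both strands, occurred in the windows of Amd1, Oaz1, Oaz2 and Smox and not in those of Amd2 and Odc1, and 72.3% of 32851 RefSeq windows hold it. Its form CACGTG, counted within CANNTG too, occurred in 0 of these 6 windows and in 7.15% of all.

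Values of Amd1 and Amd2 swapped between libraries while their sum varied little. The Amd1 transcript was at 7.44 and 0.00244 FPKM with TAFH-deleted rescue, 5.48 and 0.00218 FPKM with wild-type rescue, 6.98 and 6.92 FPKM in the knockout libraries and 0.00214 and 0.00215 FPKM in the control libraries. The Amd2 transcript was at 1.18 and 7.53 FPKM with TAFH-deleted rescue, 0.0614 and 6.48 FPKM with wild-type rescue, 0.462 and 0.35 FPKM in the knockout libraries and 6.25 and 5.87 FPKM in the control libraries. Wherever Amd1 was high Amd2 was low, clone 1 of either rescue form sided with the knockout, and clone 2 of either form sided with the control. Amd1 held 86.3% and 0.0324% of the summed FPKM with TAFH-deleted rescue, 98.9% and 0.0336% for wild-type rescue, 93.8% and 95.2% in the knockout libraries and 0.0342% and 0.0366% in the control libraries.

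**Figure D1:**
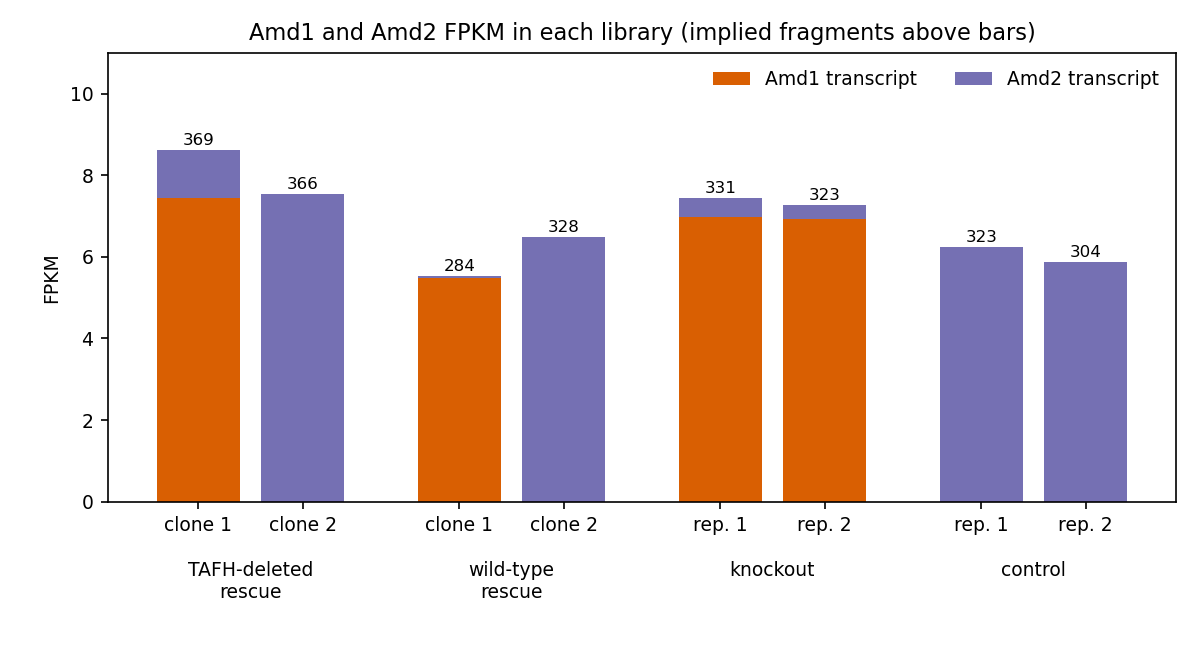
FPKM of the Amd1 (orange) and Amd2 (purple) transcripts, stacked, in each of the 8 libraries by group. Numbers above the bars are the fragments that both transcripts together imply. The colour switches between libraries, while the stacked height stays between 5.54 and 8.62 FPKM.

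Summed, the pair stood at 8.62 and 7.53 FPKM with TAFH-deleted rescue, 5.54 and 6.48 FPKM with wild-type rescue, 7.45 and 7.27 FPKM in the knockout libraries and 6.25 and 5.87 FPKM in the control libraries. The highest library was 1.56-fold above the lowest, and the order from high to low was TAFH-deleted rescue, knockout, then control and wild-type rescue, whose libraries overlap. The log2 difference between TAFH-deleted and wild-type rescue was 0.37 ± 0.18 (SE) on the log2(FPKM + 1) scale, which did not pass (adjusted p = 0.264, limma with Benjamini-Hochberg adjustment over all genes). The sum of knockout was 1.21-fold that of control, a description only.

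The fragments behind these values were whole only in the sum. With the steps between low FPKM values giving what 1 fragment is worth, both transcripts together implied 369.00 and 366.00 fragments for TAFH-deleted rescue, 284.00 and 328.00 for wild-type rescue, 331.00 and 323.00 in the knockout libraries and 323.00 and 304.00 in the control libraries. Each transcript alone implied fractions, such as 20.5 fragments on Amd2 in the first knockout library and 50.5 in TAFH-deleted clone 1. Where Amd1 was lowest, in both control libraries and in clone 2 of either rescue form, its value was worth between 0.111 and 0.119 of a fragment, less than 1 read. The values of both transcripts thus divide 1 pool of fragments, and a ratio of Amd1 between groups is no ratio of separately counted reads. The authors' deposited table marks Amd1 as FAIL and Amd2 as LOWDATA in all 3 of its comparisons.

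Such switches were uncommon but not limited to Amd1 and Amd2. Among 1915 intervals with exactly 2 transcripts and a summed level of at least 1 FPKM in every library, 48 (2.51%) had a transcript at 90% or more of the sum in some library and at 10% or less in another. Of the 223 intervals whose transcripts were within 1% of each other in length, as those of Amd1 and Amd2 are, 21 (9.42%) switched, and 14 (6.28%) did so between the 2 libraries of a group. Of the 639 intervals with transcripts of 2 different genes, 21 (3.29%) switched.

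The other 6 members varied between 1.23-fold (Oaz1) and 2.05-fold (Srm) from the lowest to the highest library. The table tested held all 8 members, and 0 of these 6 were called in the 4 comparisons. In TAFH-deleted against wild-type rescue 2.57% of the 12040 genes tested were called (310), and in the comparisons of knockout with control and of either rescue form with knockout 0% were, by limma, with 1107, 790 and 1601 genes at an unadjusted p under 0.05 for knockout against control, TAFH-deleted rescue against knockout and wild-type rescue against knockout. A count of 0 in 6 is therefore close to the background and does not show that these genes stayed the same. Of the 6, 0 were at least 2-fold apart on the log2(FPKM + 1) scale in any comparison, where 8.55% of all genes were in TAFH-deleted against wild-type rescue, 3.68% in TAFH-deleted rescue against knockout, 3.98% in wild-type rescue against knockout and 6.59% in knockout against control.

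Odc1 (chromosome 12, 17551679 to 17558308, mm9), the first enzyme of the pathway, was at 9.66 and 15.6 FPKM with TAFH-deleted rescue, 12.7 and 14 FPKM with wild-type rescue, 16.1 and 15.5 FPKM in the knockout libraries and 13.3 FPKM in both control libraries. TAFH-deleted clone 1 was the lowest of all libraries, and clone 2 of that form stood at the knockout level. The mean was 12.6 ± 4.21 FPKM with TAFH-deleted rescue and 13.4 ± 0.943 FPKM with wild-type rescue (SD, n = 2 each), a log2 difference of -0.11 ± 0.26 (SE, adjusted p = 0.812, limma). Without TAFH-deleted clone 2 it was -0.43, and without clone 1 of that form 0.21. With 1 clone left in that group, the spread comes from the wild-type rescue clones alone. No p-value is therefore given for such fits. Knockout was 1.18-fold control, a log2 difference of 0.23 ± 0.37 (SE, adjusted p = 0.854, limma), while the authors' deposited table calls this transcript with a q-value of 0.00878. Before scaling to depth, Odc1 implied 557 and 537 fragments in the knockout libraries and 539 in both control libraries. Of the 50-base stretches of the Odc1 transcript 42.2% also occur in transcripts of other genes, led by Gm7993, Gm17709 and Gm9115, whose part in its level was not tested.

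Srm (chromosome 4, 147965622 to 147968728, mm9), which makes spermidine, had the largest log2 difference by size among the 6 between knockout and control. It was at 33.8 and 67.6 FPKM with TAFH-deleted rescue, 41.7 and 43.1 FPKM with wild-type rescue, 44.2 and 42.8 FPKM in the knockout libraries and 69.2 and 68.5 FPKM in the control libraries. Wild-type rescue and knockout overlapped at about the same low level, and TAFH-deleted clone 2 alone stood near the control. Knockout was 0.632-fold control, a log2 difference of -0.65 ± 0.49 (SE, adjusted p = 0.713, limma). The spread in that test came from the rescue clones alone. Leaving out either TAFH-deleted clone kept the difference at -0.65 and changed only that spread. The error of this comparison is thus set by clones outside it. Between TAFH-deleted and wild-type rescue the log2 difference of Srm was 0.17 ± 0.35 (SE, adjusted p = 0.772, limma). Its direction depended on the clone left out, at 0.66 without TAFH-deleted clone 1 and at -0.32 without clone 2. Either fit has 1 TAFH-deleted library, so its error holds none of the spread between those clones. Between knockout and control the authors' deposited table calls Srm with a q-value of 0. It does not call Srm between either rescue form and knockout. Srm implied 542 and 1233 fragments for TAFH-deleted rescue, 800 and 819 for wild-type rescue, 735 and 713 in the knockout libraries and 1342 and 1333 in the control libraries. If every base on either strand could start a read, these took up 50.5% and 50.2% of the starts in control, against a highest value of between 92.7% and 97.4% for any single-transcript gene in a library. Whether a limit of 1 read per position lowers the high values was not tested.

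**Figure D2:**
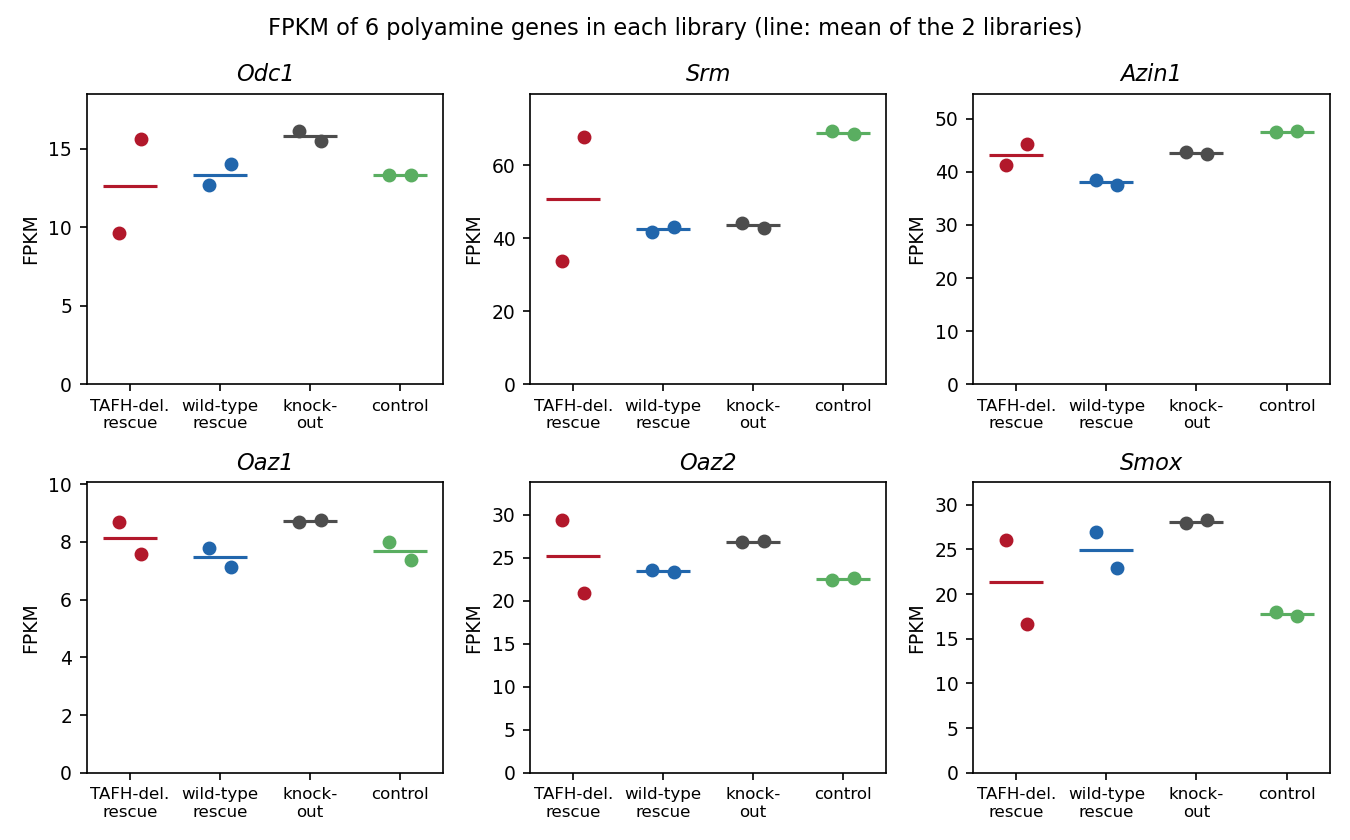
FPKM of Odc1, Srm, Azin1, Oaz1, Oaz2 and Smox in each of the 8 libraries, with a line at the mean of the 2 libraries of a group and axes from 0. The TAFH-deleted clones lie far apart for Srm (33.8 and 67.6 FPKM), while the control and knockout pairs are close.

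Among the proteins that control ornithine decarboxylase, Azin1 (chromosome 15, 38417185 to 38449021, mm9) was at 41.2 and 45.2 FPKM with TAFH-deleted rescue, 38.5 and 37.5 FPKM with wild-type rescue, 43.7 and 43.3 FPKM in the knockout libraries and 47.5 and 47.6 FPKM in the control libraries, as the sum of 2 transcripts. Both wild-type rescue clones lay below every other library, with a log2 difference of 0.18 ± 0.09 (SE, adjusted p = 0.251, limma) for TAFH-deleted against wild-type rescue. Without TAFH-deleted clone 1 it was 0.25, and without clone 2 of that form 0.11. Its 2 transcripts shared the level unevenly in libraries that otherwise agree: the one of 5028 bases was at 6.6 and 10.5 FPKM in the knockout libraries, and the one of 4868 bases at 37.1 and 32.9 FPKM.

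Oaz1 (chromosome 10, 80289401 to 80292035, mm9) was at 8.69 and 7.57 FPKM with TAFH-deleted rescue, 7.8 and 7.13 FPKM with wild-type rescue, 8.68 and 8.76 FPKM in the knockout libraries and 7.98 and 7.37 FPKM in the control libraries. It implied between 105 and 120 fragments in every library, and the knockout libraries, above all of wild-type rescue and control, overlapped TAFH-deleted rescue. Of its 50-base stretches 53.9% also occur in Oaz1-ps, a pseudogene, whose part in its level was not tested.

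Oaz2 (chromosome 9, 65524355 to 65538107, mm9) was at 29.4 and 20.9 FPKM with TAFH-deleted rescue, 23.6 and 23.3 FPKM with wild-type rescue, 26.8 and 26.9 FPKM in the knockout libraries and 22.4 and 22.7 FPKM in the control libraries. The TAFH-deleted clones held both the highest and the lowest value. Knockout was 1.19-fold control, a log2 difference of 0.24 ± 0.27 (SE, adjusted p = 0.786, limma), and the authors' deposited table calls it with a q-value of 0.00324. Before scaling to depth, Oaz2 implied 650 and 653 fragments in the knockout libraries and 634 and 645 in the control libraries. Between TAFH-deleted and wild-type rescue the log2 difference was 0.08 ± 0.19 (SE, adjusted p = 0.812, limma). It was 0.32 without TAFH-deleted clone 2 but -0.16 without clone 1.

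Smox (chromosome 2, 131317598 to 131350919, mm9), which works against synthesis, was at 26 and 16.7 FPKM with TAFH-deleted rescue, 27 and 22.9 FPKM with wild-type rescue, 27.9 and 28.3 FPKM in the knockout libraries and 18 and 17.6 FPKM in the control libraries, summed over 9 transcripts. Knockout lay above all other libraries, and TAFH-deleted clone 2 lay below control. Knockout was 1.58-fold control, a log2 difference of 0.63 ± 0.35 (SE, adjusted p = 0.644, limma). The difference stayed at 0.63 without TAFH-deleted clone 1 or clone 2. In wild-type rescue against knockout the log2 difference was -0.17 ± 0.30 (SE), and in TAFH-deleted against wild-type rescue -0.24 ± 0.25 (SE). The latter was -0.55 without TAFH-deleted clone 1 and 0.06 without clone 2. The authors' deposited table tests single Smox transcripts, and calls the one of 2262 bases between knockout and control with a q-value of 0.00803. Between wild-type rescue and knockout the authors' deposited table calls the transcripts of 2011 and 1662 bases, with q-values of 0.0163 and 0.0477. The transcript of 1764 bases was at 2.29 and 0 FPKM in the knockout libraries, and that of 1662 bases at 1.49 and 0.0018 FPKM in control. These transcripts thus do not hold up between libraries that agree in the sum. The one of 2262 bases was closer within pairs, at 6.39 and 5.82 FPKM in knockout and 3.9 and 3.36 FPKM in control. No 50-base stretch of Smox occurred in a transcript of another gene.

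Against knockout, all 6 of these members had a fitted log2 difference below 0 with wild-type rescue, between -0.22 (Odc1) and -0.04 (Srm) with a median of -0.19, and 6583 of 12040 genes were below 0 as well, with a median of -0.04. None of the 6 differences passed. The implied fragments of knockout and wild-type rescue overlapped for all of them but Srm, which had more with wild-type rescue. Odc1 implied 557 and 537 fragments in knockout and 508 and 556 with wild-type rescue. On a transcript of 2 kb, 1 fragment was worth 0.0376 FPKM in both knockout libraries and 0.0326 and 0.0329 FPKM with wild-type rescue. The part of this scaling to depth in the shared direction was not tested. With TAFH-deleted rescue 5 of the 6 were below 0 against knockout, between -0.41 (Smox) and -0.01 (Azin1), and Srm stood at 0.13. Of all 12040 genes 5321 were below 0 there and 6710 above. The median was -0.10 for the 6 and 0.03 for all genes, and none of the 6 passed. Both comparisons share the knockout libraries. The median of the 6 was 0.09 between TAFH-deleted and wild-type rescue, where all genes had 0.06, and 0.20 between knockout and control, where all genes had -0.03.

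For 5 of the 6, all but Azin1, the TAFH-deleted clones differed by more than the means of the rescue forms did. The share of all genes that do so was not counted, so this does not set these members apart. Between TAFH-deleted clones, clone 2 minus clone 1 was 0.98 on the log2 scale for Srm, 0.64 for Odc1, 0.13 for Azin1, -0.18 for Oaz1, -0.47 for Oaz2 and -0.61 for Smox, beside an SD of 0.58 over all genes. Between wild-type rescue clones the same difference lay between -0.23 (Smox) and 0.13 (Odc1), beside an SD of 0.21 over all genes. These are differences between single libraries with no replicate check.

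The other genes of polyamine metabolism were taken from a list of 33, of which 24 passed the filter on low values. In TAFH-deleted against wild-type rescue 14 of the 24 were above 0 and 10 below, with a median log2 difference of 0.08, where all 12040 genes had a median of 0.06. Of the 24, 1 rose and 0 fell by the test, beside 0.905% of all genes that rose. In knockout against control 12 were above 0 and 12 below, with a median of 0.01 against -0.03 for all genes, and 0 were called. In TAFH-deleted rescue against knockout 13 were above 0 and 11 below (median 0.03, all genes 0.03), and in wild-type rescue against knockout 7 were above 0 and 17 below (median -0.09, all genes -0.04), with 0 called in either.

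**Figure D3:**
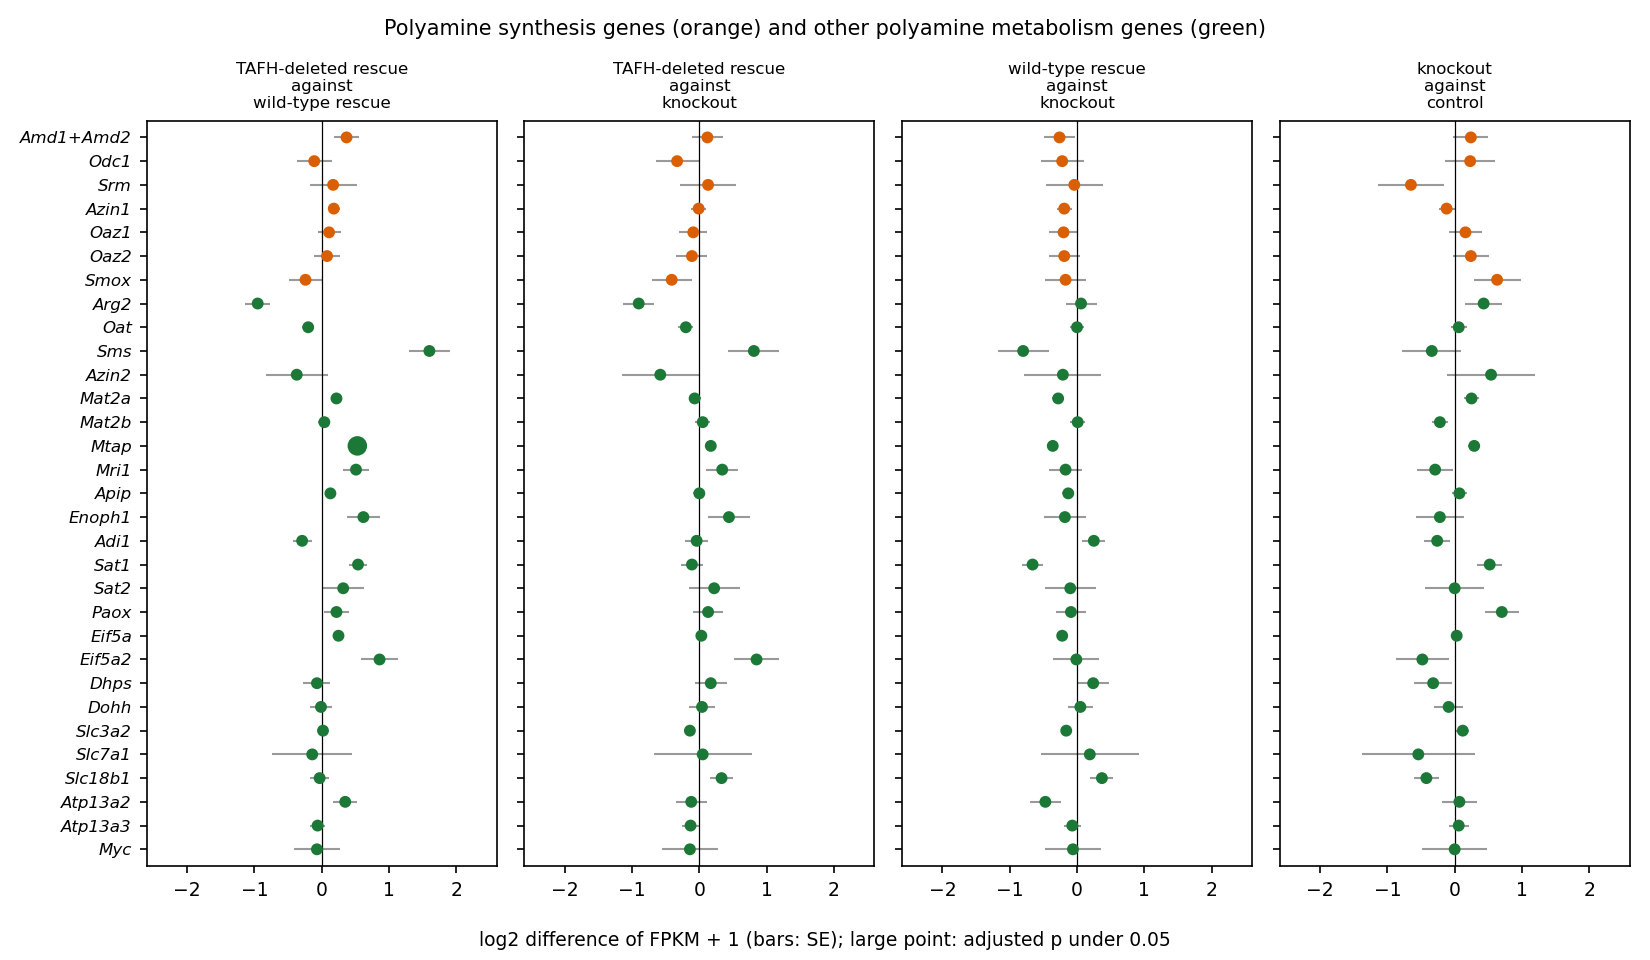
Log2 difference of FPKM + 1, with SE, of the summed Amd1 and Amd2 pair and the other 6 members (orange) and of 24 other polyamine metabolism genes (green) in the 4 comparisons, first-named group minus second. The large point is Mtap at 0.53 in TAFH-deleted against wild-type rescue, and Sms stands farthest out there at 1.60.

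The gene that rose was Mtap (chromosome 4, 88783274 to 88826994, mm9), which recycles the methylthioadenosine that spermidine and spermine synthesis leave behind. It was at 91.4 and 90.1 FPKM with TAFH-deleted rescue, 64 and 61.2 FPKM with wild-type rescue, 80.5 and 80.1 FPKM in the knockout libraries and 66 and 65.4 FPKM in the control libraries. Both TAFH-deleted clones lay above every other library. Their libraries were also shallower than those of wild-type rescue. On a transcript of 2 kb, 1 fragment was worth 0.039 and 0.0343 FPKM with TAFH-deleted and 0.0326 and 0.0329 FPKM with wild-type rescue. The share of read starts that Mtap took up was not counted. Whether a limit of 1 read per position has a part in its difference was not tested. The log2 difference between TAFH-deleted and wild-type rescue was 0.53 ± 0.06 (SE, adjusted p = 0.0484, limma). The call ended with a pseudocount of 0.1 and without a filter on low values (adjusted p = 0.0522 and 0.0818, limma). It ended with at least 5 FPKM, without a minimum length and after quantile normalization too (adjusted p = 0.0524, 0.0601 and 0.0647, limma). It also ended without either wild-type rescue clone, which leaves 1 library in that group. These are 7 of 15 alternatives, and the log2 difference was 0.41 after quantile normalization and between 0.50 and 0.56 in the others. The call held in the other 8, which are not 8 separate checks. Those without a control or a knockout library could hardly differ, as neither group enters this difference or its spread. Their unadjusted p stayed between 0.0009 and 0.000901 (limma). Both fits of all 8 libraries (adjusted p = 0.000518, and 0.00263 with the replicate block, limma) count the control and knockout pairs as replicates. Those without a TAFH-deleted clone leave 1 library in that group.

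Sms, spermine synthase (chromosome X, 153881886 to 153929978, mm9), had the largest difference in the list between the rescue forms but did not pass. It was at 5.39 and 9.59 FPKM with TAFH-deleted rescue, 1.5 and 1.94 FPKM with wild-type rescue, 3.64 and 3.77 FPKM in the knockout libraries and 5.02 and 4.86 FPKM in the control libraries. Both wild-type rescue clones lay below every other library, with a log2 difference of 1.60 ± 0.31 (SE, adjusted p = 0.0762, limma) for TAFH-deleted against wild-type rescue. The 383 tested genes of chromosome X had a median log2 difference of 0.59 in that comparison, and the 11657 others 0.05. The value of Sms lies beyond that median, and the part of the chromosome in it was not tested. The log2 difference of Sms was 1.97 without TAFH-deleted clone 1 and 1.24 without clone 2. Sat1, the spermidine and spermine acetyltransferase, is X-linked too, and was at 34 and 40.1 FPKM with TAFH-deleted rescue, 26.7 and 23.4 FPKM with wild-type rescue, 39.7 and 40.5 FPKM in the knockout libraries and 27.9 and 27.4 FPKM in the control libraries.

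By size, Arg2, an arginase that supplies ornithine, and Eif5a2, whose protein carries hypusine made from spermidine, came next between the rescue forms. Arg2 was at 0.523 and 0.306 FPKM with TAFH-deleted rescue, 2 and 1.48 FPKM with wild-type rescue, 1.88 and 1.37 FPKM in the knockout libraries and 0.875 and 1.01 FPKM in the control libraries, with a log2 difference of -0.95 ± 0.19 (SE, adjusted p = 0.0783, limma). Eif5a2 was at 9.47 and 14.8 FPKM with TAFH-deleted rescue and at 6.86 and 5.36 FPKM with wild-type rescue, with a log2 difference of 0.86 ± 0.28 (SE, adjusted p = 0.146, limma). In knockout against control the largest were Paox, a polyamine oxidase, at 3.26 and 3.22 FPKM in knockout and 1.51 and 1.7 FPKM in control (log2 difference 0.70 ± 0.25, SE, adjusted p = 0.539, limma), then Slc7a1, Azin2 and Sat1 at log2 differences of -0.54, 0.54 and 0.52. None of these passed.

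Among the genes most like Amd1 over the 6 samples of the fit, by Pearson correlation of log2(FPKM + 1), were Pam16, Btg1, Rbm3os and Dnajb4, with r between 0.967 and 0.989. Pam16 was at 1.55 and 3.88 FPKM in the knockout libraries and 1.67 and 1.33 FPKM in the control libraries. Its match thus rests on the mean of the knockout pair. Btg1 was at 16.1 and 13.5 FPKM with TAFH-deleted rescue, 15.6 and 14 FPKM with wild-type rescue, 16.5 and 16 FPKM in the knockout libraries and 13.9 and 13.6 FPKM in the control libraries, so its own range is narrow, and the match is to a split that the reads of Amd1 do not fix. Those most like Odc1 were Ap2a1, Strn4, Myh9, Rpp38 and Zbtb7b, with r between 0.975 and 0.991. Ap2a1 was at 47.5 and 56.6 FPKM with TAFH-deleted rescue, 53.1 and 54.3 FPKM with wild-type rescue, 55.8 and 56.3 FPKM in the knockout libraries and 52.8 and 53.1 FPKM in the control libraries. These correlations describe 6 points that share libraries, scaling and depth.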

How the data were processed

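The tools named in the submitters' processing notes are CASAVA 1.8, TopHat, Cufflinks and Cuffdiff, with the mm9 build. Further versions and options are not given in the sources used here. The authors deposited FPKM for 30028 RefSeq transcripts in each of 8 libraries, and the Cuffdiff p-values and q-values of 3 comparisons, quoted only as theirs. Transcripts were named by accession with a GRCm38 table (96.2% matched). Starts in the table count from 0 and are printed from 1.

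FPKM were summed per gene and chromosome. Low values of single-transcript genes of at least 1000 bases were whole multiples of 1 fragment within 0.05 in between 95.6% and 97.1% of cases, once a fixed number of bases was taken from the length. Limma 3.58.1 (R 4.3.3, trend) was fitted on log2(FPKM + 1) to 6 samples, with the control and the knockout pair averaged, on the 12040 genes that reached 1 FPKM in 2 or more libraries and had a transcript of at least 300 bases, with 2 residual and 2.15 prior degrees of freedom. Separate cultures are not stated for any group, and the p-values cover the spread among these samples alone, which may be technical. Tests were two-sided, adjusted by Benjamini-Hochberg at 0.05. On simulated data for TAFH-deleted against wild-type rescue (12040 genes), 96 of 100 genes changed by 3 and 51 of 100 changed by 1 on the log2 scale were recovered, with 10 unchanged genes called. The simulation gave each gene 1 spread in all samples. In the data the SD of clone differences was 0.58 for TAFH-deleted and 0.21 for wild-type rescue. The recovery and false calls on the real data may therefore differ. Transcript sequences were aligned with MAFFT 7.526. The members and lists were chosen with earlier results of these data known. The genes named are the 8 members, list genes that were called or had up to 4 of the largest differences, and the 5 most correlated with each of Amd1 and Odc1, of which 1 is not reported here.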

Additional observations from a re-analysis of the deposited data

Results flagged for a closer look

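The direction against knockout was opposite in the 2 rescue forms for 7 of the 31 polyamine values looked at, with both TAFH-deleted clones above and both wild-type rescue clones below the knockout mean. Of all 12040 genes, 26.5% had opposite directions in the 2 rescue forms. The flag took either direction, as that share does, and 7 of 31 is not above it. The flag therefore does not set these genes apart. The share of all genes that ran this one way was not counted. The log2 differences of TAFH-deleted against wild-type rescue, each with its limma adjusted p over all genes, follow. The summed Amd1 and Amd2 pair stood at 0.37 (adjusted p = 0.264). Mtap stood at 0.53 (adjusted p = 0.0484). Sms stood at 1.60 (adjusted p = 0.0762). Mri1 and Enoph1, enzymes of methylthioadenosine salvage, stood at 0.51 (adjusted p = 0.182) and 0.62 (adjusted p = 0.205). Paox stood at 0.22 (adjusted p = 0.461) and Eif5a, which carries hypusine, at 0.25 (adjusted p = 0.0906). Mtap alone of these passed.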

How the results depend on the processing

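The number of genes called depended on how the library pairs entered. In knockout against control it was 0, and 212 without a filter on low values, 15 without a minimum transcript length, 2847 with all 8 libraries and 2012 with all 8 and a replicate block. Leaving out libraries gave between 0 and 2601. In wild-type rescue against knockout it was 0, and 20 without a minimum length, 2987 with all 8 libraries and 2214 with the block, and between 0 and 3119 with a library left out. In TAFH-deleted rescue against knockout it was 0, and 13 without a minimum length, 1075 with all 8 libraries and 457 with the block, and between 0 and 3940 with a library left out. In TAFH-deleted against wild-type rescue it was 310, and 126 with a pseudocount of 0.1, 0 without a filter (limma, with 4344 at an unadjusted p under 0.05), 78 with a minimum of 5 FPKM, 106 without a minimum length, 174 after quantile normalization, 4561 with all 8 libraries and 3917 with the block. Leaving out libraries gave between 0 and 6668 there, and the 6668 came without TAFH-deleted clone 1.

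Of 360 values of the 6 members under these alternatives, 338 kept direction and side of the threshold, 15 passed the test in place of missing it, and 8 turned direction, of which 1 is among the 15. Of the 15, 2, both of Azin1, came with all 8 libraries and no block, and the rest without a TAFH-deleted clone. With all 8 libraries and no block, 2987 of 12040 genes passed in wild-type rescue against knockout. In TAFH-deleted against wild-type rescue 4561 did, and the Azin1 passes are in these comparisons. Fits without a TAFH-deleted clone leave 1 library in that group, and calls over all genes rose there in every comparison. The 15 passes therefore do not set these members apart. In wild-type rescue against knockout Srm turned to 0.03 after quantile normalization. In TAFH-deleted rescue against knockout, leaving out clone 1 or clone 2 of TAFH-deleted rescue gave 0.62 or -0.35 for Srm, 0.05 or -0.08 for Azin1 and -0.34 or 0.13 for Oaz2. In TAFH-deleted against wild-type rescue, the same gave 0.21 or -0.43 for Odc1, 0.66 or -0.32 for Srm, -0.16 or 0.32 for Oaz2 and -0.55 or 0.06 for Smox. Both Srm values there come from fits with 1 TAFH-deleted library, and they lie in opposite directions. The cause was not tested. Replicate numbers are shared across groups, but correlations of deviations between same-numbered libraries lay between -0.0583 and 0.0609, so the numbers were not taken to pair samples. With the replicate block 0 of the 6 members passed in any comparison. Of all 12040 genes, 457 passed with it in TAFH-deleted rescue against knockout and 3917 in TAFH-deleted against wild-type rescue. The other comparisons lay between these. For 6 genes, a count of 0 does not show that they stayed the same. Depth leaves Oaz1 with the fewest fragments, at most 120.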

Other observations

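The TAFH-deleted clones differed from each other at least 2-fold in 928 of 12040 genes (7.71%), and the wild-type rescue clones in 44 (0.365%). Within polyamine metabolism the TAFH-deleted clones 1 and 2 stood at 33.8 and 67.6 FPKM for Srm and at 9.66 and 15.6 FPKM for Odc1. Slc7a1, a carrier of arginine and ornithine, was at 9.4 FPKM in clone 1 and 31 FPKM in clone 2. Myc, a transcription factor known to activate Odc1, was at 28.3 FPKM in clone 1 and 53.4 FPKM in clone 2, against 42.9 FPKM in both the knockout and the control mean. Azin2, an antizyme inhibitor like Azin1, ran the other way, at 55.3 and 21.7 FPKM in clones 1 and 2. These genes were singled out after their values were seen, and the differences between single clones have no replicate check.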
